A study of Homo sapiens with 4 samples.

Results

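Long-range chromatin loops, called between anchors that lie over 1 Mb and up to 10 Mb apart on the same chromosome, are described here in MDA-MB-231 cells, a triple negative breast cancer line. They were taken from the deposited loop list of each library by how far apart both anchors start. Vehicle 1 and 2 had 518 and 633 such loops, THZ1 1 and 2 had 833 and 711, together 2695 of 77275 entries over the 4 lists. Entries of different lists whose anchor midpoints both lay within 20 kb were joined, which left 1416 distinct long-range loops of 33552 distinct loops of any size. Arima-HiC, which ligates and sequences DNA ends that lie close in the nucleus, was done after 48 h with DMSO (vehicle) or with 75 nM THZ1, a covalent inhibitor of the transcriptional kinase CDK7. All libraries came from this 1 cell line with no genetic change, and each condition had 2 libraries, which the series' own text calls technical replicates. HiCCUPS, the loop caller of Juicer, looks for pixels of the contact map with more contacts than their local neighborhoods, at anchor widths of 5, 10 and 25 kb. Loop lists hold no expression values, so the cell type could not be checked against marker genes.

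Loops form when cohesin reels in chromatin until it is held, often at sites where the zinc finger protein CTCF is bound in an orientation that points into the loop. Most such loops are short, and condensins, a related family of complexes, compact chromosomes for mitosis. Contacts over megabases can also join stretches of repressed chromatin, such as the Polycomb-bound genes of developmental regulators, or active promoters and enhancers over gene-poor sequence. A loop called in a population of cells cannot tell a contact made in more cells from a contact made more often in each cell.

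The sequences below show the CTCF core motif at anchors of long-range loops, since the direction of this motif is what distinguishes loops held at convergent CTCF sites. They are windows of the GRCh37 genome, written from 5′ to 3′ on the strand that carries the motif, with the match to the CTCF core motif in capitals. Among the long-range loops called in at least 2 libraries, the examples were picked, after their values were seen, from those whose anchors each held exactly 1 match. Such loops numbered 8 among those of all 4 libraries (6 convergent, 2 tandem), 6 among those of both THZ1 libraries and no vehicle library (5 convergent, 1 tandem), 1 among those of both vehicle libraries and no THZ1 library (divergent), and 8 among those of other combinations of libraries (6 convergent, 1 tandem, 1 divergent). The divergent loop of the last class was called in vehicle 2 and both THZ1 libraries. These counts depend on the rule. In windows of 25 kb centred on the anchors, pairs with matches on 1 strand only at each anchor were counted again. Loops of both THZ1 libraries and no vehicle library then had 3 convergent and 2 tandem pairs. Those of all 4 libraries had 14 convergent and 6 tandem pairs. The first pair of loops lies back to back at SEMA3D, which encodes a secreted guidance factor, so that the matches in its shared anchor region point away from each other, each into its own loop:
SEMA3D lower loop, first anchor, chr7:83565552-83565591, plus strand: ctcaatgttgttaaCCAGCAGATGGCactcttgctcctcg
SEMA3D lower loop, second anchor, chr7:84652568-84652607, minus strand: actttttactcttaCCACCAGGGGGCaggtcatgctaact
SEMA3D upper loop, first anchor, chr7:84671095-84671134, plus strand: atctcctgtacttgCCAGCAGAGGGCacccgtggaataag
SEMA3D upper loop, second anchor, chr7:86099174-86099213, minus strand: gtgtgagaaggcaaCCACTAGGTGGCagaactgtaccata

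At NCAM2, which encodes a neural cell adhesion molecule, loops started at the transcription start and in an intron and ended at 1 common anchor, again with convergent matches. Each of these loops was called in both THZ1 libraries and in 1 vehicle library:
NCAM2 start, chr21:22376227-22376266, plus strand: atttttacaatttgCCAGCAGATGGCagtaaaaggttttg
NCAM2 intron, chr21:22536398-22536437, plus strand: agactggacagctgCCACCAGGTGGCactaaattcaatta
NCAM2 common second anchor, chr21:24164465-24164504, minus strand: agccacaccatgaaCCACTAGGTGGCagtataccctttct

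Among loops with exactly 1 match in each anchor, 5 called with THZ1 alone held convergent matches, as from an intron of SPOCK3 to an intron of ANXA10. In 1 case the matches were tandem, at the HOXA cluster of homeobox genes. The loop called with vehicle alone had divergent matches:
SPOCK3 intron, chr4:167942875-167942914, plus strand: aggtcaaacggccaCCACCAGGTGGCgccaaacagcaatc
ANXA10 intron, chr4:169075190-169075229, minus strand: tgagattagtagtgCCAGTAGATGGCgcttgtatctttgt
HOXA loop, first anchor, chr7:25935134-25935173, minus strand: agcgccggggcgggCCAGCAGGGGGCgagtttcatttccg
HOXA loop, second anchor, chr7:27200743-27200782, minus strand: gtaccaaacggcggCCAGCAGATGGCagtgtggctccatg
Vehicle-only loop, first anchor, chr2:131090288-131090327, minus strand: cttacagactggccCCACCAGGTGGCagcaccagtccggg
Vehicle-only loop, second anchor, chr2:132431683-132431722, plus strand: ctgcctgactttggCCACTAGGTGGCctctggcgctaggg

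A match is a description of sequence and not a measured site of CTCF binding. Of 121442 windows of 25 kb laid end to end over the genome, 8.25% held a match on either strand.

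Long-range loops were more numerous with THZ1, while the lists as a whole held fewer loops. They made up 2.49% of 20768 loops in vehicle 1 (95% Wilson interval 2.29 to 2.72%), 2.61% of 24219 in vehicle 2 (2.42 to 2.82%), 4.84% of 17222 in THZ1 1 (4.53 to 5.17%) and 4.72% of 15066 in THZ1 2 (4.39 to 5.07%). These intervals cover counting error only. The mean share was 2.55 ± 0.0844% with vehicle and 4.78 ± 0.0832% with THZ1 (SD, n = 2), a difference larger than the spread between libraries. The number itself rose by less, by 0.43 on the log2 scale, again without overlap of the libraries. It was 0.28 without vehicle replicate 1, and 0.57 without vehicle replicate 2. The exact two-sided permutation test gave p = 0.33 for both values, the smallest that 2 libraries against 2 allow. The total number of reads per library is not in the lists, and the contacts summed over long-range loops (12317 and 15204 with vehicle, 23534 and 20720 with THZ1) move with how many loops were called.

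The excess of THZ1 loops lay between 1 and 3 Mb. Over 1 and up to 1.5 Mb the libraries held 376 and 441 (vehicle) and 575 and 494 (THZ1) loops, over 1.5 and up to 2 Mb 82 and 123 against 176 and 137, and over 2 and up to 3 Mb 31 and 36 against 49 and 55. None of these bins overlapped between conditions, with log2 ratios of 0.39, 0.63 and 0.64. Over 3 and up to 5 Mb the libraries overlapped, with 15 and 20 loops in vehicle and 18 and 14 in THZ1, and so did those over 5 and up to 10 Mb, with 14 and 13 against 15 and 11. Below the limit of 1 Mb the ratio passed through 0.12 over 500 kb and up to 1 Mb, where the libraries also overlapped, and -0.22 over 200 and up to 500 kb. Just outside the limit, over 900 kb and up to 1 Mb, there were 156 and 206 loops with vehicle and 237 and 213 with THZ1, and just inside it, over 1000 and up to 1100 kb, 141 and 155 against 213 and 172. Median strength, defined below, was 2.65, 2.55, 2.32 and 2.33 just outside and 2.55, 2.60, 2.30 and 2.36 just inside. Beyond the upper limit of 10 Mb, 32, 36, 38 and 33 loops were left out. The median size did not separate the conditions, at 1270 and 1295 kb with vehicle and 1290 and 1295 kb with THZ1 (exact permutation p = 1).

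**Figure D1:**
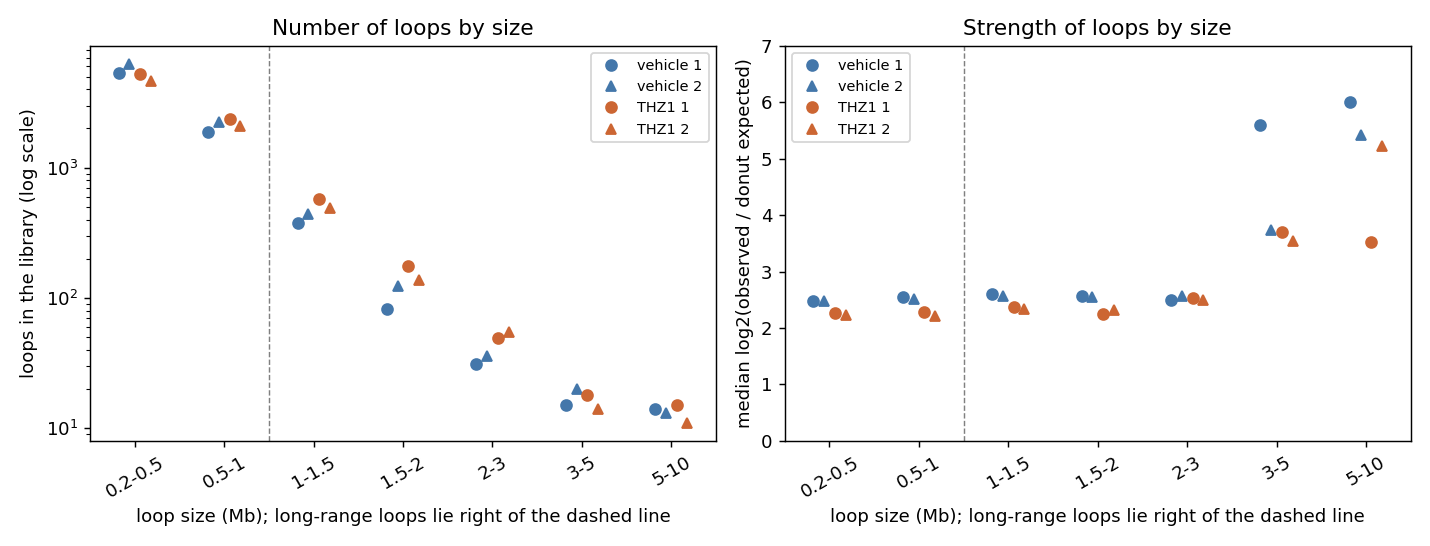
Number of loops (left, log scale) and median strength (right, log2 of observed over donut expected contacts) by loop size in Mb, 1 point per library (blue vehicle, orange THZ1; circle replicate 1, triangle replicate 2). From 1 to 3 Mb both THZ1 libraries lie above both vehicle libraries in number, and over 3 Mb the libraries overlap in number and strength is higher, at 3.53 to 6.01.

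Long-range loops were weaker with THZ1 relative to their surroundings, not in contacts. Strength is given as log2 of the observed contacts over the contacts expected from the donut-shaped neighborhood of the pixel. Its median over long-range loops was 2.63 and 2.61 with vehicle and 2.38 in both THZ1 libraries, which corresponds to 6.20-fold and 6.09-fold against 5.21-fold and 5.20-fold over expectation. The difference of the means was -0.24, without overlap of the libraries (exact permutation p = 0.33, the smallest possible). The median number of contacts at a loop was 21 with vehicle in both replicates, and 25 and 26 with THZ1. The median donut expectation was 3.06 and 3.17 with vehicle and 4.43 and 4.57 with THZ1. Both numbers were thus higher with THZ1, the expectation more than the contacts. Neither is normalized between libraries, and the part of sequencing depth in these differences was not tested. Loops over 200 kb and up to 1 Mb showed the same order in all of these values. Their median strength was 2.50 and 2.49 with vehicle and 2.26 and 2.22 with THZ1. Their median contacts were 23 and 23 against 28 and 29, and their median donut expectation 3.70 and 3.77 against 5.24 and 5.52. The lists differ in their members, so loops with the same anchors in every library are compared at the end.

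The anchors of long-range loops held transcription starts more often than the genome and less often than those of shorter loops. The sequence between them held fewer starts per Mb than that of shorter loops. Counted in a window of 25 kb centred on the anchor, a protein-coding transcription start was present at 25.9% and 29.3% of anchors with vehicle and at 22.6% and 23.2% with THZ1, against 13.1% of genome windows of the same length. In the same libraries, loops over 200 kb and up to 1 Mb had such a start at 34.4%, 35.4%, 31.1% and 30.1% of anchors. The long-range share was 7.49 percentage points lower on average and lower in 4 of 4 libraries (exact sign-flip permutation test, 2 of 16 sign patterns as extreme, the fewest possible). Between conditions the share was 27.6 ± 2.43% with vehicle and 22.9 ± 0.408% with THZ1 (SD, n = 2), without overlap. Between the anchors, the median long-range loop enclosed 1.54 ± 0.0479 transcription starts per Mb (SD over 4 libraries). The median loop over 200 kb and up to 1 Mb enclosed 4.75 ± 0.0280. The long-range value was lower in 4 of 4 libraries (the same test, again 2 of 16). The sequenced genome holds 7.09 per Mb, which is a mean and so not a like measure to these medians over spans. In each library 6.72 to 8.06% of the long-range loops enclosed no protein-coding start at all.

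The CTCF core motif was present at 23.6% of long-range anchors in each vehicle library and at 25.5% and 26.3% in the THZ1 libraries, about 1.85 percentage points below loops over 200 kb and up to 1 Mb in the same libraries (lower in 4 of 4, again 2 of 16 sign patterns). Where both anchors held the motif on 1 strand only, the pair was convergent in 21 of 37 and 32 of 53 loops with vehicle and in 46 of 65 and 37 of 54 with THZ1. Divergent pairs numbered 1, 3, 1 and 2. The convergent share, 58.6 ± 2.56% with vehicle and 69.6 ± 1.59% with THZ1 (SD, n = 2), did not overlap between the conditions (exact permutation p = 0.33), but rests on these few pairs. Its mean over the 4 libraries, 64.1%, was close to the 64.0% of loops over 200 kb and up to 1 Mb, and long-range loops were higher in 2 of 4 libraries (exact sign-flip p = 1). Those shorter loops showed the same order between the conditions, at 63.4% and 61.5% with vehicle and 64.6% and 66.7% with THZ1. A domain boundary of any of the 4 domain lists lay within 25 kb of 45.7 to 48.7% of long-range anchors and of 11.6% of genome windows.

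A further measure moved with the treatment at the anchors. The share of long-range anchors that also anchored a loop of up to 200 kb in the same library was 48.5% and 54.0% with vehicle and 35.2% and 32.7% with THZ1. Loops over 200 kb and up to 1 Mb showed the same order, at 62.8% and 67.4% against 51.5% and 47.7%. The number of short loops also differed between the lists, and its part in these shares was not tested.

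**Figure D2:**
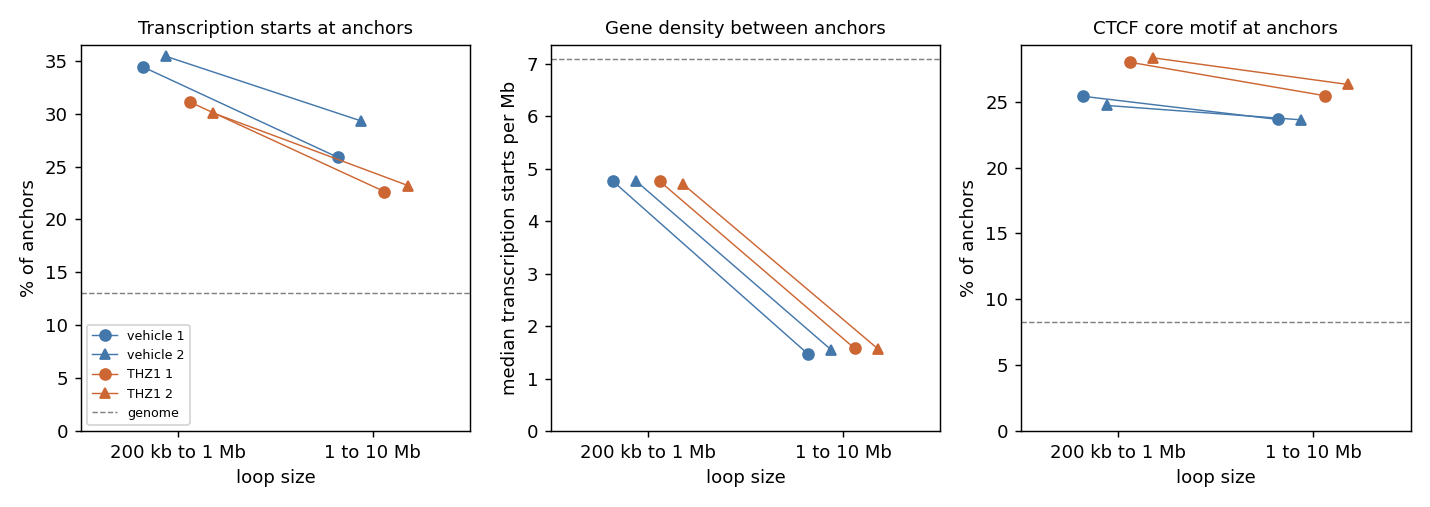
Share of anchors with a protein-coding transcription start (left, %), median density of transcription starts between the anchors (middle, per Mb) and share of anchors with the CTCF core motif (right, %), for loops of 200 kb to 1 Mb and of 1 to 10 Mb. Each line joins the values of 1 library, and the dashed line is the genome, in the middle panel as a mean and not a median. All 4 libraries fall from the shorter to the longer loops in each panel, most for density, from about 4.75 to 1.54.

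Genes at the anchors were read against 6 lists of genes. Among loops called in at least 2 libraries, 637 long-range loops had the start of 295 of 20090 protein-coding genes (1.47%) in such a window, while 7715 loops over 200 kb and up to 1 Mb had 4257 (21.2%). Of 193 homeobox transcription factors, which set positional identity in development, 14 (7.25%) were at long-range anchors, namely HOXA9, HOXA10, HOXA11, HOXD3, HOXD8, HOXD9, HOXD10, HOXD11, HOXD12, HOXD13, DLX5, IRX5, MEIS1 and NKX2-1. Many of these share an anchor within the HOXA or HOXD cluster and do not count as separate loops. Of 172 other developmental transcription factors and ligands, 11 (6.40%) were at such anchors, among them SOX4, SOX9, NR2F1, FOXP2, SHH and TFAP2B. Of 87 neuronal adhesion genes, which tend to be long genes in gene-poor sequence, 8 (9.20%) were, including NCAM2, SLIT2, NEGR1, LRRC4C and EPHA4. The same lists stood at 33.2%, 29.7% and 12.6% for loops over 200 kb and up to 1 Mb. Of 60 mesenchymal and basal-like genes 2 (3.33%), TGFB2 and CDH11, started at a long-range anchor, and of 37 luminal breast genes 1 (2.70%), FOXA1. Of 26 genes of condensin, cohesin and CTCF 0 did, where 1.47% of so few genes is less than 1 gene. For loops over 200 kb and up to 1 Mb these lists stood at 38.3%, 21.6% and 26.9%. No loop called in both libraries of a condition had a gene of these lists starting at both of its anchors. These counts were not tested.

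Long-range loops were unevenly spread over the chromosomes. Chromosome 6 held the most, with 70 and 77 loops with vehicle and 86 and 74 with THZ1, or 45.8 per 100 Mb of sequenced chromosome over the 4 libraries. Chromosome 5 followed with 35.6 and chromosome 8 with 32.0 per 100 Mb. The gene-dense chromosomes 19 and 22 held 2 to 4 and 1 to 2 loops per library, or 5.82 and 3.58 per 100 Mb, and chromosome X held 9.27. As a share of all loops of a chromosome, chromosome 13, the poorest in genes, was highest at 5.52%, and chromosome 19 was lowest at 0.467%. Both THZ1 libraries lay above both vehicle libraries on 13 of 23 chromosomes (56.5%) and below on none (0%). For loops over 200 kb and up to 1 Mb these counts were 0 of 23 (0%) and 2 of 23 (8.7%). The largest ratios of the means were on chromosome 17, with 10 and 10 loops against 22 and 17, and on chromosome 14, with 8 and 9 against 18 and 13. On chromosome 6 the libraries overlapped. Chromosomes are not replicates, and their copy number in these cells was not analysed here.

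**Figure D3:**
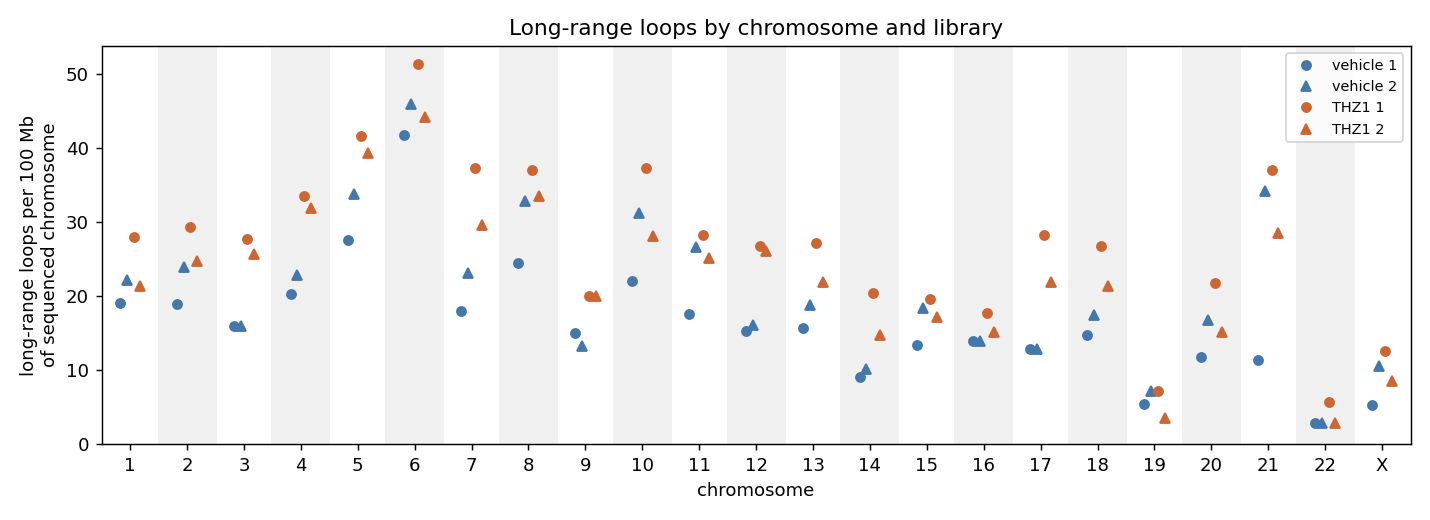
Long-range loops per 100 Mb of sequenced chromosome (y axis) by chromosome, 1 point per library (blue vehicle, orange THZ1; circle replicate 1, triangle replicate 2). Chromosome 6 is highest at 45.8 over the 4 libraries, and both THZ1 points lie above both vehicle points on 13 of 23 chromosomes.

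Some anchors took part in several long-range loops. Within a library, 15.3% and 17.0% of distinct anchors with vehicle and 19.1% and 18.5% with THZ1 held 2 or more, a difference of 2.62 percentage points without overlap (exact permutation p = 0.33). A greater number of long-range loops also leaves more anchors to share, and its part in this difference was not tested. Of the 1013 anchors of the 637 loops called in at least 2 libraries, 823 held 1 loop, 146 held 2, 28 held 3 and 16 held 4 to 9.

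The anchor with the most loops lies on chromosome 8 from 130690001 to 130740000, in sequence without a protein-coding gene. It held 9 loops of 1025 to 2860 kb, all toward lower coordinates, to 7 distinct partner anchors, 6 of the loops being called in all 4 libraries. One partner held the start of MYC, the growth-promoting transcription factor, and the loop to it (from 128745001 to 130700000) had 21 and 23 contacts with vehicle and 36 and 21 with THZ1 at 5 kb anchors, with strengths of 3.69, 3.92, 3.75 and 3.17. These strengths overlapped between the conditions. A further loop of this anchor, from 128225001, was called with vehicle alone, at 32 and 42 contacts.

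The second such anchor, on chromosome 6 from 10425001 to 10450000 and also without a protein-coding gene, held 8 loops of 1025 to 2300 kb. Of these, 4 were called in all 4 libraries, and the loop to the start of SLC35B3, a nucleotide sugar transporter, was called with THZ1 alone, at 50 and 42 contacts. The anchor at the start of EFNB2, an ephrin ligand of guidance receptors, on chromosome 13 from 107175001 to 107200000, held 5 loops. Its longest, of 2650 kb, had 22 contacts in both vehicle libraries and 36 in both THZ1 libraries at the same anchors, with strengths of 2.63 and 2.73 against 2.31 and 2.34. Contacts, which are not normalized between libraries, were thus higher and strength lower with THZ1. In the edgeR test described at the end, this log2 change of -0.35 (SE 0.24, adjusted p = 0.32) did not pass. Another 5 loops met at MMADHC, a gene of cobalamin metabolism, on chromosome 2 from 150425001 to 150460000, and 4 met at TGFB2, a growth factor of epithelial-mesenchymal transition, on chromosome 1 from 218500001 to 218525000.

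Of the other anchors with 4 loops, that at COL12A1, a fibril-associated collagen gene, had all 4 called in every library, the longest of them, of 1470 kb, ending in an exon of CD109. The SOX4 anchor on chromosome 6 (21575001 to 21600000) had loops of both kinds. Its loops to an intron of CDKAL1 and to a gene-free anchor on the other side were called in all libraries, whereas those to the starts of E2F3, a cell cycle transcription factor, and MBOAT1 were called with vehicle alone. The E2F3 loop had 18 and 15 contacts with strengths of 3.29 and 3.22. The SEMA3D anchor, whose sequences are shown above, held loops to both sides, 3 of them called in all libraries, and its loop of 1875 kb to an exon of ELAPOR2 was called with THZ1 alone, at 25 and 28 contacts.

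**Figure D4:**
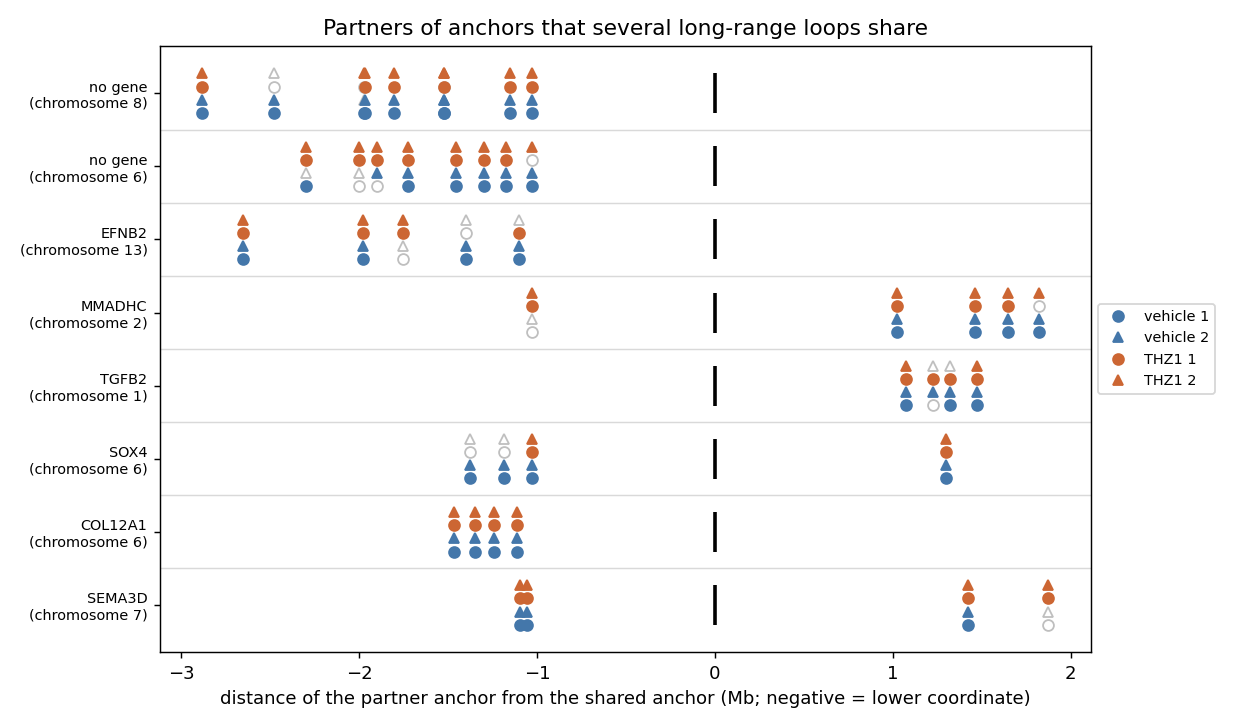
Distance in Mb from a shared anchor (black bar at 0) to the partner anchors of its long-range loops, for the 5 anchors with the most loops and those at SOX4, COL12A1 and SEMA3D; within a row each library has its own line. Filled symbols mark the libraries that called the loop (blue vehicle, orange THZ1; circle replicate 1, triangle replicate 2), and open grey symbols those that did not; where partners nearly coincide, on chromosome 8, filled symbols cover open ones. COL12A1 is filled throughout, and SOX4 has 2 loops filled for vehicle alone.

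Of the 1416 distinct long-range loops, 244 (17.2%) were called in all 4 libraries and 779 in 1 library. The loops of all 4 libraries had a median size of 1210 kb, enclosed a median of 1 transcription start, and 69 of them had no protein-coding gene at either anchor. Among those with at least 20 contacts in each library, the strongest within 3 Mb lay on chromosome 16 from 21590001 to 22710000, with no gene at its anchors, followed by BCL6 to TPRG1. BCL6 encodes a transcriptional repressor, and the loop from its exon to the start of TPRG1 (chromosome 3, 187455001 to 188670000) had 81 and 102 contacts with vehicle and 80 and 81 with THZ1. Its strengths of 4.19, 5.0, 4.58 and 4.58 overlapped between the conditions. The BCL6 anchor held 3 further loops, of 1140 to 1495 kb, into TPRG1 and LPP. The start of HOXD8 (chromosome 2, 176990001 to 178015000) had 20, 23, 21 and 26 contacts at its loop into gene-free sequence, with strengths of 4.91 and 4.76 against 4.14 and 4.41. The loop at the start of PLK2, a stress-responsive polo-like kinase, had 37, 30, 45 and 55 contacts, and that at an intron of ACVR2A, an activin receptor, had 20, 21, 33 and 23. PLK2 strengths overlapped between the conditions, at 5.06 and 4.37 against 4.03 and 4.53, while those of ACVR2A did not, at 4.68 and 4.24 against 3.93 and 3.82. The log2 change at ACVR2A, -0.55 (SE 0.25, edgeR adjusted p = 0.14), did not pass the test described at the end. Other loops of all 4 libraries started at developmental regulators, namely IRX5, SLIT2, NR2F1, SOX4, DLX5 and FOXC1. The start of FOXC1 lay in the 5 kb anchors of its loop (15 contacts in vehicle 2 and in THZ1 2) but outside the window of its call with most contacts, so the list counts above leave it out.

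Loops called in both THZ1 libraries and in no vehicle library numbered 93, which is 6.57% of distinct long-range loops, against 2.24% of all distinct loops and 3.67% of those over 200 kb and up to 1 Mb. The strongest with at least 20 contacts included CHD2 and RGMA on chromosome 15 (21 and 32 contacts, at anchors of 10 and 25 kb), TFAP2B to PKHD1, an intergenic anchor to ESR2, and SEMA3D to ELAPOR2. TFAP2B, an AP-2 transcription factor, started at 1 anchor of a loop on chromosome 6 from 50780001 to 51890000, whose other anchor lay on an exon of PKHD1, a gene of kidney and bile duct cells. This loop had 28 and 29 contacts and strengths of 2.78 and 2.82. A loop from the same first position to an exon of PKHD1 at 51820001 to 51825000 was called in all 4 libraries. It had 23 and 18 contacts with vehicle at 10 kb anchors, and 18 and 12 with THZ1 at 5 kb anchors. The loop to an exon of ESR2, which encodes estrogen receptor beta, spanned 2125 kb with 29 contacts in each THZ1 library. At the HOXA cluster, the loop whose tandem motifs are shown above (chromosome 7, 25925001 to 27225000) ended on the starts of HOXA9, HOXA10 and HOXA11, with 27 and 22 contacts and strengths of 2.72 and 2.45. MEIS1, whose protein binds DNA together with HOX proteins, started at an anchor of a loop with 39 and 37 contacts, near which 1 vehicle library also had a call. The start of NEGR1, a neuronal adhesion gene, met that of ZRANB2 with 17 and 16 contacts, and GPC6, a glypican gene, had a loop of 1125 kb from its start into its own intron with 40 and 39. The longest loop called with THZ1 alone, of 3645 kb, joined CDKAL1 and DCDC2.

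Loops called in both vehicle libraries and in no THZ1 library numbered 29, or 2.05% of distinct long-range loops, against 9.67% of all distinct loops and 4.92% of those over 200 kb and up to 1 Mb. The share of long-range loops thus lay above the background for THZ1 and below it for vehicle. The strongest vehicle-only loops with at least 20 contacts included an intergenic anchor to the start of ACSL5, a fatty acyl-CoA synthetase (chromosome 10, 112150001 to 114150000, with 25 and 44 contacts), and an intron of GRIK4, a kainate receptor gene, to an intergenic anchor (24 and 29 contacts). The loop from PNPLA8, THAP5 and DNAJB9 to IFRD1 on chromosome 7 spanned 3875 kb with 26 and 20 contacts. At the HOXD cluster, the starts of HOXD10, HOXD11, HOXD12 and HOXD13 were joined to a gene-free anchor 1400 kb away with 19 and 18 contacts and strengths of 2.91 and 2.94, beside the HOXD8 loop that all libraries shared.

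A loop missing from a list is not shown to be absent. Of the 29 vehicle-only loops, 5 had a call of a THZ1 library with both anchors within 50 kb, and of the 93 THZ1-only loops, 12 had such a call of a vehicle library. The loop from BCKDHB, a gene of branched-chain keto acid breakdown, to the start of TENT5A is an example. It was listed as vehicle-only with its first anchor at 80825001 to 80850000 of chromosome 6 (29 and 33 contacts) and as THZ1-only in the next bin, at 80850001 to 80875000 (37 and 33 contacts). A vehicle-only loop between starts of replication-dependent histone genes on chromosome 6, from H2BC4 and H2AC6 to H4C11 and H4C12, also had a nearby call in both THZ1 libraries. None of the THZ1-only loops at TFAP2B, ESR2, HOXA, SEMA3D, NEGR1 or GPC6 had one, nor did the vehicle-only loops at ACSL5, GRIK4, HOXD and SOX4. The loop to PKHD1 that all 4 libraries called, named above, lay just beyond this distance from the TFAP2B loop. When anchors were matched within 50 kb, 97 loops were called with THZ1 alone and 29 with vehicle alone. The class of 1 condition also depends on having both libraries. With 1 THZ1 library left out, the loops called with THZ1 alone rose to 307 (without replicate 1) or 377 (without replicate 2), and with 1 vehicle library left out, those called with vehicle alone rose to 198 (without replicate 1) or 141 (without replicate 2). Leaving out vehicle replicate 2 gave 164 loops called with THZ1 alone, and leaving out THZ1 replicate 1 or 2 gave 67 or 49 called with vehicle alone.

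To compare strength on the same pixels, loops with identical anchors in all 4 lists were tested together. Of 2622 such loops of any size, 43 were long-range. Their median strength was 3.50 in each vehicle list and 3.06 and 3.14 with THZ1. The median log2 change with THZ1 was -0.41, the same as over all tested loops, and 38 of the 43 long-range loops had a value below 0. Most shorter tested loops did too. The upper quartile of the change was -0.249 for loops of up to 200 kb and -0.178 for those over 200 kb and up to 1 Mb. For long-range loops it was -0.165. The quasi-likelihood test of edgeR, adjusted over all 2622 loops, called 9 (20.9%) of the 43 weaker and 0 stronger at 0.05, and 14 passed an unadjusted p of 0.05. Over all tested loops, 27.4% were weaker and 0.0381% stronger, and 1092 of the 2622 passed an unadjusted edgeR p of 0.05. The share among long-range loops lay below this background. Of loops of up to 200 kb 32.0% were weaker, and of those over 200 kb and up to 1 Mb 18.9%. With TMM-normalized contacts and no expectation the direction turned: 0 long-range loops were lower and 4 higher, and their median change was 0.30. Over all 2622 tested loops, 113 were lower and 69 higher, and the median moved from -0.41 to -0.0056. With DESeq2 0 long-range loops were called, with 4 at an unadjusted p of 0.05. Of all tested loops, 17 were called weaker with DESeq2 and 359 passed its unadjusted p of 0.05. Calls also depended on the full set of libraries, among long-range loops and among loops of all sizes. With 1 library left out, the median log2 change of the long-range loops was -0.44 to -0.34.

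The largest change among the called loops was at an intron of ROBO1, a receptor for SLIT guidance factors (chromosome 3, 79570001 to 80740000). Its contacts were 15 and 19 with vehicle and 22 and 16 with THZ1, while the donut expectation was 0.496 and 0.434 against 1.42 and 1.39, which gave a log2 change of -1.42 (SE 0.27, edgeR adjusted p = 0.00327). Next were LYZL1, a lysozyme-like gene (log2 change -1.15, SE 0.29), a gene-free loop on chromosome 4 from 79870001 to 81140000 (-0.93) and OXR1, a gene of oxidation resistance (-0.93). At LYZL1 the donut expectation was only 0.0909 and 0.144 with vehicle and 0.223 and 0.221 with THZ1, where a small change moves the ratio far. The loop ending on the start of JARID2, a partner of Polycomb repressive complex 2, had 57 and 60 contacts with vehicle and 40 and 54 with THZ1, and changed by -0.89 (SE 0.19, edgeR adjusted p = 0.00415). Contacts were lower in both THZ1 libraries than in either vehicle library at JARID2 and at LYZL1 (21 and 18 against 17 and 16), but not at ROBO1. The loop at the start of IGFBP3, which binds insulin-like growth factors, changed by -0.69 (SE 0.22). In all of the called loops strength did not overlap between the conditions, but they were called on these same values. Of all 43 shared long-range loops, strength did not overlap in 31. At the other end, values of 0.26 (SE 0.28) at FGGY and 0.22 (SE 0.25, edgeR adjusted p = 0.57) at SEMA3D did not pass the test, and neither did those at COL12A1 to CD109 (0.11, SE 0.25) and ANKS1A to BTBD9 (0.04, SE 0.21).

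Widening the match to anchors of the same width within 20 kb gave 75 long-range loops of all 4 libraries. Their median strength was 3.56 and 3.52 with vehicle and 3.16 and 3.10 with THZ1, while their median contacts were 19 and 20 against 25 and 25 and the donut expectation 1.61 and 1.87 against 2.82 and 2.60. The mean over the THZ1 libraries was lower than over the vehicle libraries in 69 of the 75, and strength did not overlap in 46, all of them lower with THZ1. At this matching 5 of the 75 were weaker past an edgeR adjusted p of 0.05, against 587 of all 5131 loops so matched. The long-range share lay below this background. No such background is given here for the counts of 69 and 46.

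**Figure D5:**
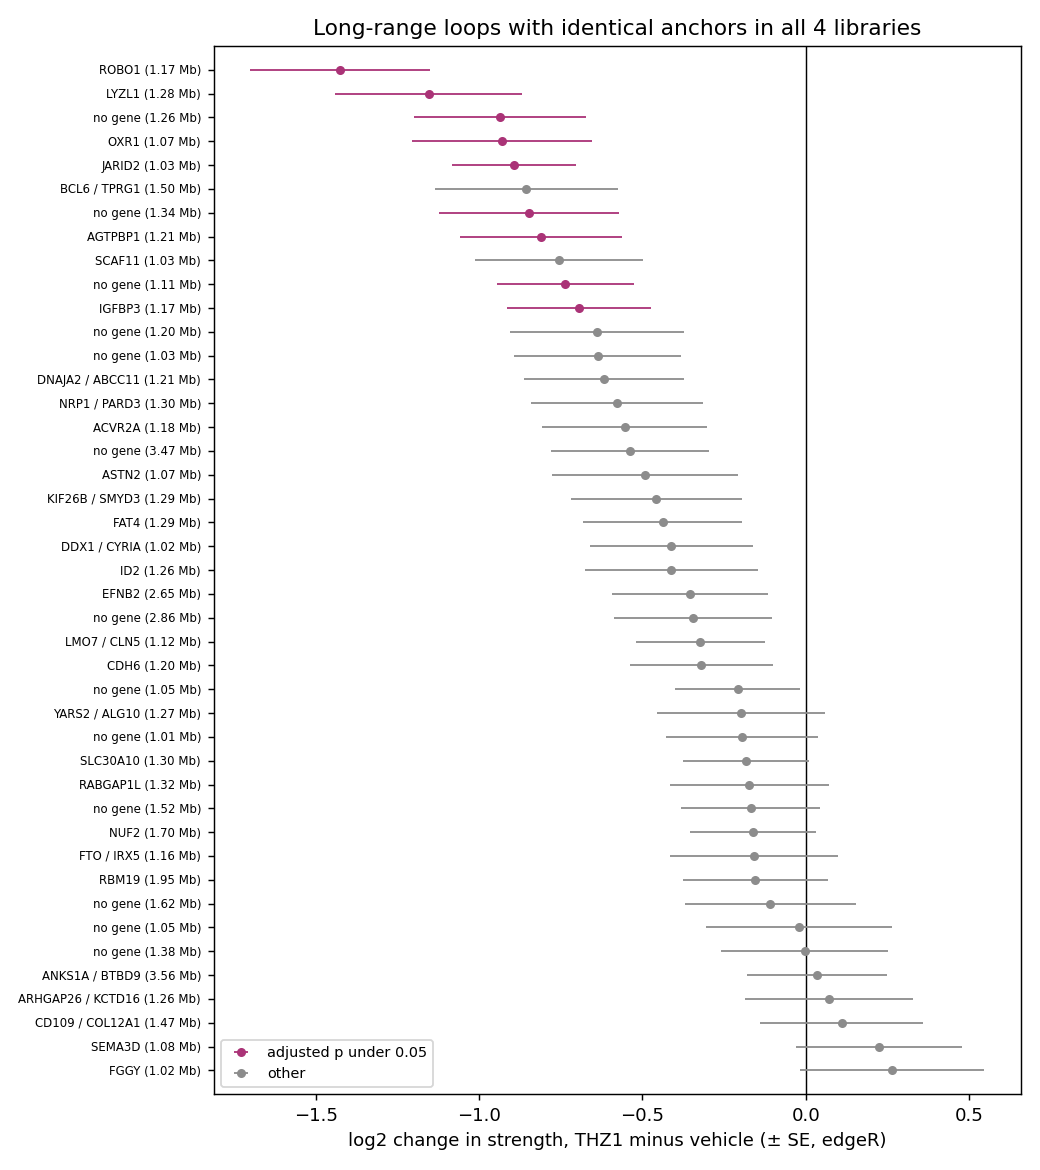
Log2 change in strength with THZ1 (x axis, edgeR estimate ± SE) for the 43 long-range loops with identical anchors in all 4 libraries, labelled by the protein-coding genes at their anchors and the loop size in Mb. The 9 loops past an edgeR adjusted p of 0.05 are purple, and all lie below 0. In total 38 of 43 estimates are below 0, as were most of the shorter tested loops, which are not drawn.

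The few loops over 3 Mb are described apart. The split at 3 Mb was made after the counts by size had been seen, so no test is given. The 65 distinct loops over 3 Mb had a median strength of 5.87 and 4.15 with vehicle and 3.53 and 3.75 with THZ1, against 2.57 and 2.56 and 2.35 and 2.34 for those of 1 to 3 Mb. Their contacts were about as many, with medians of 18 to 20 per library, but the donut expectation was low, at 0.498 and 1.02 with vehicle and 1.32 and 1.13 with THZ1, where a small change of the expectation moves the ratio far. Of these loops 9.23% of anchors held the CTCF core motif and 25.4% lay near a domain boundary, against 24.8% and 45.1% for those of 1 to 3 Mb. Only 1 of them had the motif on 1 strand at both anchors, in tandem. Their spans held more genes, with a median of 4.01 transcription starts per Mb against 1.82, and 16.9% crossed an assembly gap against 2.44%. On chromosomes 5, 6, 7 and 9 lay 9, 10, 8 and 13 of the 65. Chromosome 9 also held 33 of the 1351 loops of 1 to 3 Mb.

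Of the 65, 8 were called in all 4 libraries. The longest, of 7.92 Mb on chromosome 5 from 170260001 to 178185000, enclosed 78 transcription starts and had 20, 13, 19 and 23 contacts, at 10 kb anchors in vehicle 2 and 5 kb anchors elsewhere. Its strengths of 10.62, 8.14, 10.60 and 10.77 rest on donut expectations of 0.0123 to 0.046 contacts. Another on chromosome 5, from 21520001 to 29430000, had 39, 111, 177 and 28 contacts, but at anchors of 10, 25, 25 and 5 kb, so these counts cannot be set against each other. On chromosome 6, ANKS1A and BTBD9 were joined over 3.56 Mb and 44 transcription starts with 28 and 29 contacts with vehicle and 50 and 46 with THZ1, at strengths of 6.22, 6.13, 6.12 and 6.30 that overlapped between the conditions. Positions are those of the reference genome, and the arrangement of the chromosomes in these cells was not analysed here.

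On chromosome 9 a group of loops, picked out after the values were seen, ran from in and around MLLT3, which encodes a component of transcription elongation complexes, to sequence 5.23 to 6.73 Mb away. There were 6 and 5 such loops with vehicle and 9 and 4 with THZ1. The loop from the start of MLLT3 (20620001 to 26330000) had 31 and 33 contacts with vehicle and 34 and 27 with THZ1, and strengths of 3.83 and 3.81 against 3.53 and 3.10. Within the span of these loops, from 20837500 to 24887500, no loop of any size had an anchor in any library. This stretch of 4.05 Mb holds the starts of 24 protein-coding genes, among them the type I interferon cluster, MTAP, CDKN2A and CDKN2B. Anchor-free stretches of at least this length numbered 30 over the genome.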

How the data were processed

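The data are Hi-C loop lists of MDA-MB-231 cells, 2 libraries per condition. The authors processed the reads with Juicer 1.6 on hg19, and per the file headers the lists were made with juicer_tools 1.19.02. For each loop the authors deposited a count, the raw contacts at its peak pixel, not normalized between libraries. Beside it they deposited the expected signal, in contacts, from 4 neighborhoods of the pixel (donut, bottom-left, horizontal and vertical). The q-values of the loop caller, also deposited, were at most 0.0997. The authors' deposited domain lists give boundaries on a 10 kb grid. The authors' tables of loops unique to a condition hold their own comparison and were not used.

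Members, gene lists and tests were chosen with earlier results of these data known. The loops named are, for each class of calls, the 8 strongest with at least 20 contacts in each calling library and the longest, the largest changes past the edgeR threshold, the 5 anchors with most loops, and others that the text marks or that carry a gene of the lists. Loops were joined when both midpoints lay within 20 kb. For a joined loop, values come from 1 anchor width where all calling libraries share one, and contacts at different widths are not comparable. Genes are protein-coding genes of GENCODE 44 on GRCh37. The CTCF core motif, of 12 letters, was matched on both strands (10944 matches); sequences from chromosome 8 are not shown. The gene list counts place a loop by its call with the most contacts.

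Libraries were compared by exact permutation over 6 arrangements, and size classes within libraries by exact sign flips over 16. The p-values measure only the spread between these libraries, which may be technical, and loops are not replicates. Shared loops with a donut expectation above 0 (2622 of 2624) were fitted by edgeR 4.0.16 under R 4.3.3, with the log of the donut expectation as offset, Benjamini-Hochberg adjustment over all of them, and DESeq2 1.42.0 as an alternative. Tested on simulated data with 200 changed loops among 2622, this fit recovered 22.8% of changes of 1.5-fold, 84.9% of 2-fold and 97.1% of 4-fold, with 7 false calls of 150. An earlier form of this test, which asked for a higher recovery at 2-fold than it found, was replaced by this one. Python 3.11.15, pandas 2.3.3, numpy 2.4.6, scipy 1.17.1 and matplotlib 3.10.9 were used. Alternatives covered size limits, anchor width, FDR, low counts, assembly gaps, windows, the expectation and leaving out each library.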

Additional observations from a re-analysis of the deposited data

How the results depend on the processing

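Of 138 results recomputed under an alternative, 106 were counted as unchanged, 22 moved and 10 reversed. Counts of loops or chromosomes had to stay within 1.5 times of the main value, and the median change of shared loops within the spread. For the other results only the direction in effect had to hold, so their size could differ by more. The difference in median size, 10 kb, was 40 kb with 10 kb anchors alone and still counted as unchanged. The number, the share and the median strength of the long-range loops of each list kept their direction under all alternatives run. The strength change of the shared long-range loops reversed with TMM and no expectation. The difference in median size changed sign with 25 kb anchors alone (-12.5 kb). The convergent share against loops over 200 kb and up to 1 Mb, 0.071 percentage points, changed sign with 5 kb to each side of the midpoint (-0.97), against loops over 500 kb and up to 1 Mb (-3.12) and with 25 kb anchors alone (-0.32). The share of anchors at domain boundaries, 1.6 points above, was 2.87 points below (-2.87) against loops over 500 kb and up to 1 Mb. The cause of these changes was not tested.

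Of the 43 shared long-range loops, 9 were weaker with the donut expectation, 4 with the bottom-left, 0 with the horizontal (10 at an unadjusted p of 0.05) and 2 with the vertical one, 3 of the 20 with at least 20 contacts in every library, 0 with DESeq2 (4 unadjusted), 0 with TMM and no expectation (13 unadjusted, in either direction), and 5 of 75 with anchors matched within 20 kb. Their median log2 change of -0.41 became -0.32 with the bottom-left expectation, -0.36 with the horizontal one, -0.35 with at least 20 contacts and 0.30 with TMM and no expectation. Over tested loops of all sizes, 719 of 2622 were weaker with the donut, 604 of 2619 with the bottom-left, 48 of 2620 with the horizontal and 67 of 2620 with the vertical expectation. With at least 20 contacts 707 of 2113 were weaker, and with DESeq2 17 of 2622. At an unadjusted p of 0.05, 547 of 2620 loops of all sizes passed with the horizontal expectation. With DESeq2 359 of 2622 passed, and with TMM and no expectation 522 of 2622, in either direction.

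Leaving out each library in turn gave 0.28 to 0.57 for the log2 ratio of loop numbers, -2.5 to 22.5 kb for median size, -1.97 to 2.31 points for the convergent share, 122 to 377 loops called with THZ1 alone, 49 to 198 called with vehicle alone, 0 to 4 weaker shared loops and a median log2 change of -0.44 to -0.34. A group with 1 library left is assumed to vary like the other.

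With the replicate number as a block, 10 in place of 9 shared long-range loops were weaker and the median log2 change was -0.41. For the other results, the differences of same-numbered libraries must give the same means. With 2 pairs the sign-flip test cannot give a p under 0.5, so no call could change. These results count among those called unchanged above, though their outcome was fixed. The numbers were not taken to pair the libraries: the differences between replicates 1 and 2 in the 2 conditions correlated with r = 0.0182 over 2622 loops. Contacts at the named loops, mostly 15 to 60, limit which changes can be seen.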
